A study of Homo sapiens with 12 samples.

Results

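Cells make cholesterol from acetyl-CoA through the mevalonate pathway, squalene and a series of sterol intermediates, and they make fatty acids from the same precursor. Both routes are controlled by the SREBP transcription factors. When membrane sterol is low, the escort protein SCAP carries SREBP from the endoplasmic reticulum to the Golgi, where proteases release the active factor, and INSIG proteins hold the complex back when sterol is plentiful. Dividing leukemia cells need both products for new membranes.

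The genes described here are 36 genes of these routes, taken by symbol from a fixed list of enzymes of mevalonate and cholesterol synthesis, regulators of SREBP and enzymes of fatty acid synthesis. All 36 had a row in both deposited tables, which list 15612 genes for clone 1 and 16848 genes for clone 2. The cells were RCH-ACV, an established human B-cell precursor leukemia line that displays the pre-B-cell receptor. For each of 2 clones, the sensitive subline received the vehicle alone (0.1% DMSO), and the resistant subline received rising concentrations of the multi-kinase inhibitor dasatinib, up to 1 µM. Each of these 4 groups has 3 libraries, from RNA isolated at separate time points, which makes 12 in all, and each resistant subline is a single selected population. All groups share the parental line and its serum-containing growth medium, which can itself supply cholesterol and fatty acids.

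The value described is the authors' mean normalized count, which averages a gene over the 6 libraries of a clone, sensitive and resistant together. It has no replicate error here, and library depths are unknown. Summed over all genes the means come to 19108037 (clone 1) and 24561485 (clone 2), and the median gene has 406 and 442. The remaining columns hold the authors' own comparison of resistant with sensitive cells, and they were not used. The effect of resistance on these genes is therefore not analysed here, and the comparisons below are among genes and between the clones. In such bulk RNA, fewer expressing cells and less RNA per cell cannot be told apart.

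The B-cell precursor identity of the line was visible in the means. Of 13 B-cell precursor markers, 12 lay above the 75th percentile of all genes in each clone, from CD79B at 1828 in clone 1 and 2487 in clone 2 up to RAG1 at 13087 in clone 1 and DNTT at 13027 in clone 2. The exception was MME, which encodes CD10, at 67.7 in clone 1 and 67.0 in clone 2. Of 6 T-cell markers none was listed in clone 1 and CD8A alone was listed in clone 2, at 2.34. Of 6 myeloid markers 5 were listed in each clone, with CSF1R at 615 and 768 and the others at or under 47.5. Of 3 erythroid markers ALAS2 alone was listed, in clone 2, at 2.35. CD8A and ALAS2 lay under 2.52, the lowest mean listed in clone 1, so their absence there is not read as a difference between clones. Of 4 liver or adipose markers 2 were listed, at no more than 6.41, and of 4 fibroblast markers COL1A1 was listed, at 145 and 214.

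The pathway was well expressed as a set. The median member had a mean normalized count of 1962 in clone 1 and 2265 in clone 2, and the median percentile of the members among all genes of the table was 85.7 and 85.1. By this count, 25 members in clone 1 and 24 in clone 2 lay above the 75th percentile of all genes. Counts grow with transcript length, so levels of different genes are compared below per kilobase of coding sequence, using lengths from GENCODE release 29, and per kilobase of the whole transcript where that changes the order or the size. Per kilobase, 23 members in clone 1 and 22 in clone 2 lay above the 75th percentile of genes with a coding length. The 36 genes took 0.623% of the summed means in clone 1 and 0.564% in clone 2.

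**Figure D1:**
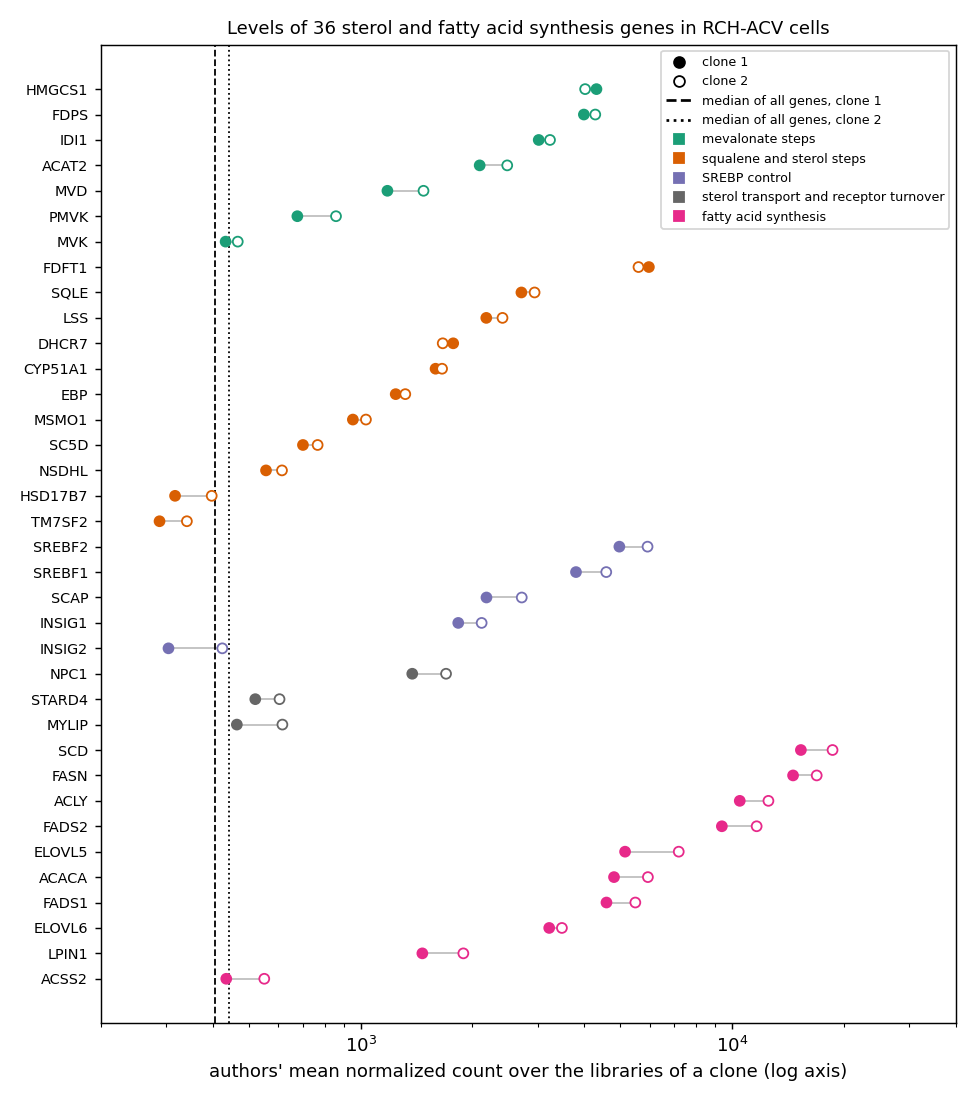
Authors' mean normalized count of each of the 36 genes (x axis, logarithmic), with clone 1 as filled and clone 2 as open circles, colored by role, and the median of all genes as vertical lines. Values, not corrected for length, run from 287 (TM7SF2) to 15335 (SCD) in clone 1, and TM7SF2, HSD17B7 and INSIG2 lie below the median of all genes in both clones.

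What the members share in sequence was read from RefSeq promoter windows (GRCh38.p14), each running from 250 bases before to 50 bases after a transcript start. Windows were at hand for 32 of the 36 members, 45 in all because some genes have several starts, and not for FASN, ACAT2, SQLE and FDFT1. In 36 of the 45, the last 40 bases lay within a GENCODE transcript of the gene. All 45 were kept in the shares below. The sterol regulatory element to which SREBP binds was searched as TCACNCCAC on both strands. This form was found in 1 member, SREBF2 (2.22% of member windows), and in 1.13% of all 35093 windows. Elements with other letters or outside these windows would be missed, so a window without a match is not read as lacking the element. CCAAT boxes, the letters bound by NF-Y, a known partner of SREBP at sterol genes, were searched as CCAAT on both strands. They were present in 60.0% of the member windows, covering 23 members, and in 34.6% of all windows. At least 3 copies were present in 15.6% of member windows and 3.25% of all windows. The 7 members with such a window were MVK, NSDHL, MSMO1, MVD, FDPS, IDI1 and EBP, all of the mevalonate and sterol steps. These steps hold 18 of the 36 members. Among those 18, ACAT2, SQLE and FDFT1 had no window and IDI1 had 3. Whether the number of copies differs by role was not tested. GC boxes, searched as GGGCGG on both strands, were present in 86.7% of member windows and 45.0% of all windows. The E-box CACGTG was present in 13.3% and 7.26%. These are matches of letters and not mapped binding sites. The shares of all windows include genes not expressed in these cells, and expressed genes alone were not used as a background.

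The following stretches show the letters found, with the match in capitals. The first is the only sterol regulatory element match among the members, and the others are, in each of the members with the most CCAAT copies, the upstream copy nearest to the start. They lie upstream of a RefSeq transcript start, on the forward strand of RefSeq's GRCh38.p14. The SREBF2 stretch is chr22:41832962-41832990, MSMO1 chr4:165327625-165327649, MVK chr12:109573738-109573762 and NSDHL chrX:152830969-152830993.
SREBF2: tgacgcgccaTCACCCCACgcaccgcttc
MSMO1: ctctcgcaggCCAATaacgacagga
MVK: gcgcgctctgATTGGctggcctgaa
NSDHL: ccgagctgggCCAATcctcttggtg

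The match in SREBF2 ends 124 bases before the start, and those in MSMO1, MVK and NSDHL end 29, 41 and 79 bases before it. The MVK and NSDHL windows hold 5 copies each and the MSMO1 window 4. In MVK the box shown is read on the reverse strand, and ATTGG is the reverse complement of CCAAT. MVK overlaps exons of MMAB on the opposite strand in GENCODE. MMAB, which acts in vitamin B12 metabolism, was listed at 792 in clone 1 and 859 in clone 2. Of the genes shown, MSMO1 had a mean of 953 and 1034 in the clones, MVK 433 and 467, NSDHL 556 and 614, and SREBF2 4976 and 5926.

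The early steps of the pathway build the isoprenoid units. HMGCS1, which makes HMG-CoA, had a mean normalized count of 4317 in clone 1 and 4024 in clone 2, and ACAT2, a thiolase that makes acetoacetyl-CoA, had 2093 and 2482. The mevalonate kinases MVK and PMVK had 433 and 676 in clone 1 and 467 and 859 in clone 2. MVD, the decarboxylase that follows them, had 1181 and 1477. IDI1, the isomerase that interconverts the isoprenoid units, had 3018 and 3236, and FDPS, which joins them into farnesyl diphosphate, had 3993 and 4285. IDI1 was the highest of these genes per kilobase of coding sequence, at 3542 in clone 1 and 3799 in clone 2, followed by FDPS at 3176 and 3409. Per kilobase of transcript the order was the opposite, with FDPS at 2702 and 2899 and IDI1 at 1312 and 1407. MVK was the lowest of them with either length, at 364 and 393 per kilobase of coding sequence.

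On the same scale, PMVK reached 1173 and 1491, ACAT2 1757 and 2084, HMGCS1 2767 and 2580, and MVD 984 and 1231. IDI2, a relative of IDI1, was listed at 147 and 175, and the pseudogene FDPSP2 at 14.9 and 14.6. ACAT2 shares exon sequence on opposite strands with TCP1, a chaperonin subunit gene listed at 13022 and 15854, FDPS with RUSC1-AS1, listed at 660 and 717, and IDI1 with IDI2-AS1, listed at 440 and 465. Strand was preserved by the library kit, but the strand setting of the counting is unknown, so reads of such pairs may not have been separated.

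The squalene and sterol steps ran in clone 1 from 229 per kilobase of coding sequence for TM7SF2 to 4184 for FDFT1. FDFT1, squalene synthase and the first step committed to sterols, had 5975 in clone 1 and 5602 in clone 2. SQLE, the squalene epoxidase, had 2711 and 2941, and LSS, which closes the rings to lanosterol, had 2180 and 2411. The demethylation enzymes CYP51A1, MSMO1, NSDHL and HSD17B7 had 1592, 953, 556 and 316 in clone 1, and 1657, 1034, 614 and 397 in clone 2. TM7SF2, a sterol reductase, had 287 and 341.

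The last steps, the isomerase EBP, the desaturase SC5D and the reductase DHCR7, had 1243, 699 and 1776 in clone 1 and 1319, 766 and 1664 in clone 2. In clone 2, FDFT1 stood at 3923 per kilobase of coding sequence, HSD17B7 at 388 and TM7SF2 at 272. The pseudogene HSD17B7P2 was listed at 118 and 141, and how reads were divided between it and HSD17B7 is unknown. TM7SF2 shares exon sequence with VPS51 on the same strand in GENCODE, and VPS51 was listed at 1199 and 1726.

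Both SREBP genes were expressed, at similar levels per length. SREBF2, which encodes the SREBP that chiefly drives sterol genes, had 4976 in clone 1 and 5926 in clone 2. SREBF1, which encodes the SREBP forms that chiefly drive fatty acid genes, had 3802 and 4587. Per kilobase of coding sequence, SREBF2 was 1.35 times SREBF1 in clone 1 and 1.33 times in clone 2, and with transcript length the ratios were 1.06 and 1.05. SCAP, the escort protein, had 2183 and 2717.

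The INSIG genes were unequal. INSIG1, itself an SREBP target in many cells, had 1832 and 2118, and INSIG2 had 304 and 424. Per kilobase of coding sequence INSIG1 was 5.18 times INSIG2 in clone 1 and 4.29 times in clone 2, and per kilobase of transcript the ratios were 2.70 and 2.23. INSIG1 was the higher in both clones and with both lengths, and the size depended on the length used.

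The genes of sterol transport and receptor turnover lay below the typical member. NPC1, which carries cholesterol out of lysosomes, had 1378 in clone 1 and 1699 in clone 2. STARD4, a cytosolic sterol carrier, had 520 and 605, and MYLIP, the ubiquitin ligase IDOL that degrades lipoprotein receptors, had 464 and 616. Per kilobase of coding sequence these were 359, 846 and 348 in clone 1, all below the median of the members, 1129. STARD4-AS1, which overlaps STARD4 on the opposite strand in GENCODE, was listed at 1461 and 2310.

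Fatty acid synthesis held the 3 members with the highest level per kilobase of coding sequence, SCD, FADS2 and ELOVL5, but per kilobase of transcript FDFT1 and FDPS were above ELOVL5 in both clones. SCD, the desaturase that makes oleate, had 15335 in clone 1 and 18662 in clone 2. FASN, the synthase that builds palmitate, had 14609 and 16915, and ACACA, which supplies its malonyl-CoA, had 4813 and 5939. ACLY, which makes cytosolic acetyl-CoA from citrate, had 10497 and 12540. ACSS2, which makes acetyl-CoA from acetate, had 435 and 550. Per length, ACLY stood at 3178 and 3796 per kilobase of coding sequence, against 203 and 257 for ACSS2, the lowest member on this scale. Per kilobase of transcript, the lowest member was STARD4, at 113 and 131, and ACSS2 had 149 and 188.

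The other desaturases and the elongases were also expressed. FADS2 had 9394 and 11656, FADS1 had 4593 and 5494, ELOVL5 had 5155 and 7191, and ELOVL6, which elongates palmitate, had 3221 and 3485. FADS2 was 2.31 times FADS1 per kilobase of coding sequence in clone 1 and 2.39 times in clone 2. ELOVL5 was 1.30 and 1.68 times ELOVL6, and per kilobase of transcript 3.35 and 4.32 times. FASN was 2.88 and 2.70 times ACACA per kilobase of coding sequence. LPIN1, a phosphatidate phosphatase of glycerolipid synthesis, had 1467 and 1891. FADS1 and FADS2 overlap on opposite strands in GENCODE, and FADS2 shares exon sequence with FEN1, which was listed at 4122 and 5002.

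**Figure D2:**
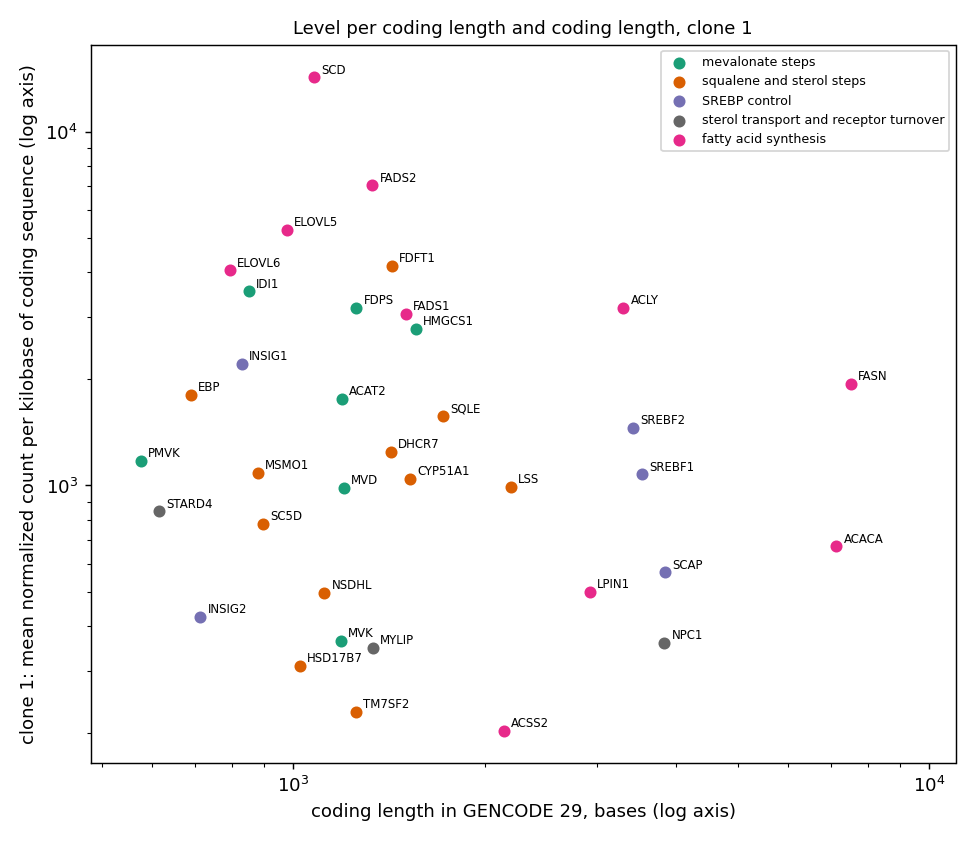
Mean normalized count per kilobase of coding sequence in clone 1 (y axis, logarithmic) against coding length in bases (x axis, logarithmic), 1 point per gene, colored by role. SCD is the highest at 14239 and ACSS2 the lowest at 203, while FASN, the longest at 7533 bases, stands at 1939.

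The order of the members by level per kilobase of coding sequence had the same first 10 genes in both clones. SCD was first in each, at 14239 and 17328, followed by FADS2 at 7053 and 8751 and ELOVL5 at 5271 and 7352. ELOVL6, FDFT1, IDI1, ACLY, FDPS, FADS1 and HMGCS1 completed them. From SCD to ACSS2 the span was 70.2-fold in clone 1 and 67.4-fold in clone 2 on this scale. Whether neighbours in this order differ beyond the spread between libraries cannot be judged from means. With transcript length in place of coding length, 9 of the first 10 stayed among the first 10 in each clone, but the order and the span changed. In clone 1 FDFT1 came first, at 3162 per kilobase of transcript, above SCD at 2860 and FDPS at 2702, and the span down to STARD4 was 28.0-fold. In clone 2 SCD came first at 3480, then FADS2 at 3211 and FDFT1 at 2964, and the span down to STARD4 was 26.5-fold. ELOVL6 left the first 10, at 499 and 540 per kilobase of transcript, and FASN entered, at 1706 and 1975. The order of the members by level therefore depended on the length used.

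The clones were compared through the ratio of their means. Raw means were higher in clone 2 for most genes, with a median log2 ratio of 0.37 over the 13917 genes with a mean of at least 10 in both tables. This shift was subtracted, and the log2 ratios below are relative to it. The tables were normalized separately, and the library names carry the letter A for clone 1 and B for clone 2. A difference between clones therefore cannot be told apart from one between these library sets. Each mean also pools sensitive and resistant cells. A difference in both therefore cannot be told apart from one in the sensitive or the resistant cells only. With 1 pooled value per clone there is no replicate check and no test.

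Relative to the median gene, the members were somewhat lower in clone 2. Their median log2 ratio was -0.12, with a range from -0.47 to 0.11, and 33 of 36 lay below 0, against 50.0% of all genes by construction. No member was past 1.5-fold in either direction. Of all genes, 2.70% were higher and 2.24% lower in clone 2 by more than that. At shares this low, few or none of 36 genes would be past it. These shares also cover genes with means below those of any member. The interquartile range of all genes ran from -0.10 to 0.10. Below its lower edge, where 25.0% of all genes lie, were 23 members, and above its upper edge, which also leaves 25.0% of all genes, were 2 members, INSIG2 and ELOVL5. Counting against these edges was chosen after the values were seen. Among the 8744 genes whose clone 1 mean lay within the members' range, the interquartile range was -0.08 to 0.07.

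The sterol enzymes lay lowest. All 18 genes of the mevalonate, squalene and sterol steps were below 0, and 15 of them were below the lower edge of the interquartile range. Their median was -0.25. HMGCS1 had -0.47, and FDFT1 and DHCR7 each had -0.46. These 3 were the members whose raw mean was lower in clone 2, as it was for 5.03% of all genes compared. CYP51A1 had -0.31 and EBP had -0.28, and IDI1, FDPS, MVK, SQLE, MSMO1, SC5D, NSDHL and LSS lay between -0.27 and -0.22. TM7SF2 and ACAT2 both had -0.12. Within the interquartile range were MVD at -0.05, HSD17B7 at -0.04 and PMVK at -0.02.

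The fatty acid genes lay closer to the median gene. Of 10 genes 4 were below the lower edge, with a group median of -0.08. ELOVL6 had -0.26, FASN had -0.16, and ACLY and FADS1 each had -0.11. SCD had -0.09, ACACA -0.07, FADS2 -0.06, ACSS2 -0.03 and LPIN1 0.00 to 2 decimals. ELOVL5 was on the other side at 0.11. Whether the sterol and fatty acid groups differ was not tested.

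Among the SREBP regulators, INSIG1 had -0.16, SREBF2 -0.12, SREBF1 -0.10 and SCAP -0.05, while INSIG2 had 0.11. The INSIG genes thus lay on opposite sides of the median gene. STARD4 had -0.15, NPC1 -0.07 and MYLIP 0.04.

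**Figure D3:**
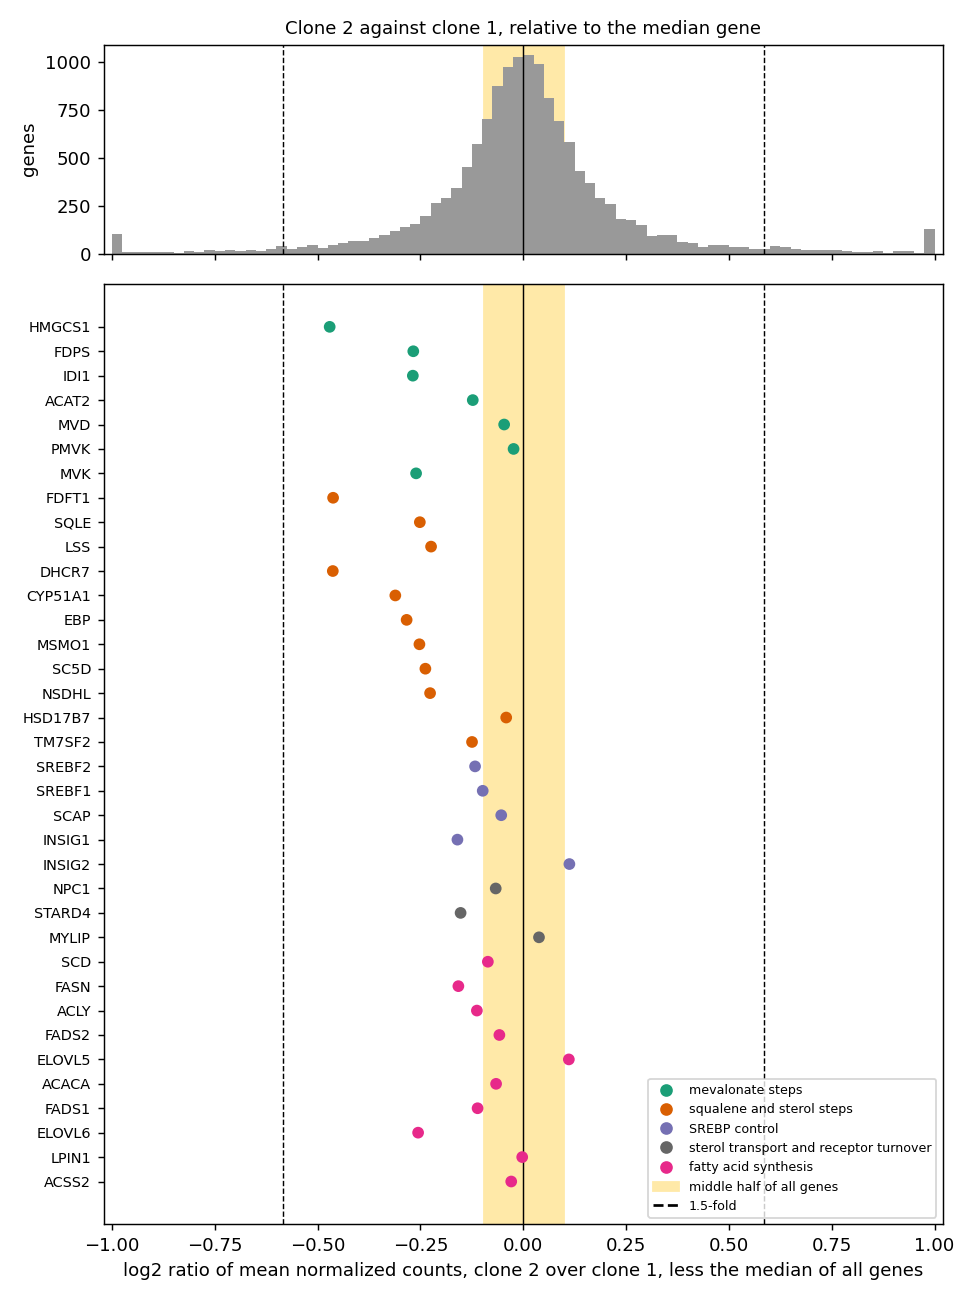
Log2 ratio of mean normalized counts, clone 2 over clone 1, less the median of all genes (x axis), as a histogram of 13917 genes (top, values beyond 1 in either direction gathered in the end bins) and for each of the 36 genes (bottom), with the interquartile range of all genes shaded and 1.5-fold dashed. HMGCS1, FDFT1 and DHCR7 are the lowest at -0.47 to -0.46, and no gene of the list reaches 1.5-fold.

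A list of 45 further genes of neighbouring routes was read in the same way. Of them 44 were listed in clone 1 and 45 in clone 2. The malic enzyme gene ME1 was listed in clone 2 alone, at 1.24. The lowest mean listed was 2.52 in clone 1 and 1.13 in clone 2, so this is not read as a difference between clones. The median log2 ratio of the list was -0.02 over 44 genes. Of these, 24 lay below 0, against 50.0% of all genes. Below the lower edge of the interquartile range were 11 and above the upper edge 11, against 25.0% of all genes each. Past 1.5-fold higher in clone 2 was 1 of the 44, ABCG1, and past it lower were 0, against 2.70% and 2.24% of all genes. These counts are near those shares and are not read as a result about the list. ABCG1, a sterol exporter and target of the oxysterol receptors, had 187 in clone 1 and 390 in clone 2 and a log2 ratio of 0.69. ABCA1, also a sterol exporter, lay on the opposite side at -0.28, with 2053 and 2182. The oxysterol receptor genes NR1H2 and NR1H3 had -0.08 and -0.03. The groups of the isoprenoid branch, with a median of -0.05, and of long chain elongation and activation, with -0.09, lay nearer to 0 than the sterol enzymes did. The group of SREBP processing and stability had a median of 0.06. The group of oxysterol receptors and sterol export had -0.01, that of mitochondrial fatty acid synthesis and citrate supply 0.01, and that of glycerolipid steps 0.08.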

How the data were processed

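Libraries were stranded and made from mRNA. Among the tools in the submitters' processing notes are the aligner BWA (versions 0.6.2-r126 and 0.7.7-r441), Picard 1.107, FastQC 0.10.1, bedtools 2.19.0, SAMtools and DESeq2, and the build is hg19, with no roles stated. The annotation and the read counter are unknown here. The signal used is the deposited mean per gene of normalized counts, which the authors scaled within each clone and averaged over its 6 libraries. The authors' other columns hold their own contrast of resistant and sensitive cells (log2 fold change, its standard error, statistic, p-values and a direction label). They were not used, and no number was computed from them.

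Members were matched by exact symbol. For each clone, 2 rows shared a symbol and were left out, and 21 and 22 symbols had become calendar dates. Percentiles were taken over all rows of a table. Coding and transcript lengths came from the GENCODE 29 basic transcript with the longest coding sequence (GRCh38), by symbol, for 13477 genes of clone 1 and 14373 of clone 2. Log2 ratios between clones used genes with a mean of at least 10 in both tables, less their median. No test was run, because values per library were not analysed here, so the replicate design (3 libraries per group) gives no error. The designed fit per library was not possible for that reason. The ratio code was tested on simulated data. The members and lists were chosen with earlier results of these data known. All 36 members are named. Python 3.11.15, pandas 2.3.3 and numpy 2.4.6 were used.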

Additional observations from a re-analysis of the deposited data

How the results depend on the processing

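The centring decided the sign of the comparison between clones. Without centring, the median log2 ratio of clone 2 over clone 1 for the 36 genes was 0.25 in place of -0.12, since raw means were higher in clone 2 for most genes. Centred on the ratio of the summed means it was -0.116 in place of -0.124, close but past the tolerance set for a value without replicates. Centred on genes with a mean of at least 100 it was -0.123, within that tolerance. With transcript length in place of coding length, chosen for the span after the values were seen, the span of the 36 genes was 28.0-fold in place of 70.2-fold in clone 1 and 26.5-fold in place of 67.4-fold in clone 2. The other 18 of 22 alternative values stayed within 1.5 times the main count or within the tolerance of the main ratio. They covered older symbols, minimum means, which genes were the first 10 by either length, and fold limits, and the counts past a fold were 0 in each. The quartile count was added after the values were seen, and 24 in place of 23 genes lay below the lower quartile when it was set by genes in the members' range of levels. No paired analysis was possible because each deposited value used is a mean over the libraries of a clone, and for the same reason no library could be left out. The fits per library, with their other normalization and filter, were not run.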
